A study of Sus scrofa with 9 samples.

Results

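The T cell receptor complex was followed across 3 sorted fractions of pig blood T cells through 6 genes. These were CD3D, CD3E, CD3G and CD247, which encode invariant chains of the complex, CD2, an adhesion receptor, and LCK, the kinase that starts the receptor signal. Members were all probes whose sequence accession, without its version, belonged to one of these pig genes in the annotation of assembly Sscrofa11.1. This gave 10 of the 43603 probes of the array: 2 each for CD3D, CD3G, CD247 and LCK and 1 each for CD3E and CD2. All 10 were tested, among 16024 tested probes. The members were chosen with earlier results of these data known.

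The T cell receptor recognises peptides on MHC molecules with variable chains that have almost no tail inside the cell. The signal is passed by CD3 gamma, delta and epsilon and by the zeta chain, the product of CD247, whose tails carry tyrosine motifs. LCK, which is held at the tails of CD4 and CD8, phosphorylates these motifs, and the kinase ZAP70 then docks on them. CD2 binds CD58 on other cells and strengthens the contact, and in pigs a large group of gamma delta T cells lacks it. CD3E, CD3D and CD3G lie side by side in the pig annotation with no gene between them.

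The samples were T cells from the blood of sows, isolated on Percoll and separated on a cell sorter. The fractions were CD3+CD4+CD8+ cells (DP), CD3+CD4+ cells (the CD4 fraction) and CD3+CD8+ cells (the CD8 fraction), with 3 arrays each. No treatment, genotype or breed is named in the labels. Age, sort purity and the gate that separates CD3+CD4+ or CD3+CD8+ cells from DP cells are not given in the sources used here, and whether arrays of the same number come from the same sow is not stated. The series calls the arrays biological replicates, and each began with 25 ng of RNA that was amplified and labelled with Cy3. All fractions were sorted as CD3+ cells, so expression of CD3 was selected in every sample by the sort. The sort acts on CD3 protein and does not set the RNA level of a chain. In sorted bulk samples, fewer cells that express a gene and less RNA of it per cell cannot be told apart.

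Values are log2 signals relative to the 75th percentile of the probes on the same array, so 0 is the signal of a probe at that percentile. The percentile stood at a signal of 15.2 to 84.1 on the 9 arrays, and 32.6% to 53.7% of probes were well above background. DP array 1 was alone on its slide. Slide 2 held DP array 2, CD4 array 2 and CD8 arrays 1 and 2, and slide 3 held DP array 3, CD4 arrays 1 and 3 and CD8 array 3. As a check of the sort, each of the 2 CD4 probes was well above background on 1 of 3 CD8 arrays, not the same one, and the brightest had a DP minus CD4 difference of 0.22 (SE 0.64). CD8A was higher in DP than in the CD4 fraction by 3.20 (SE 0.49, limma adjusted p = 0.0179), and 1 of its 2 tested probes was called there. It was also well above background on all 3 arrays of the CD4 fraction, at 0.29, 0.94 and -0.40.

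All 4 receptor chains, CD2 and LCK were expressed in all 3 fractions, and no difference between fractions was detectable for any of them. The 10 probes were well above background on every array that gave them a value. Between DP and the CD4 fraction 0 of the 10 probes were called (limma, Benjamini-Hochberg adjusted p under 0.05 over all tested probes), against 0.293% of all tested probes. Between DP and the CD8 fraction 0 of 10 were called, against 0.312%, and between the CD4 and CD8 fractions 0 of 10, against 0.437%. With shares this low in the background, a count of 0 among 10 probes does not set the members apart. At an unadjusted p under 0.05 the count was also 0 of 10 in each comparison, against 4.84%, 6.52% and 4.54% of all tested probes. With the array number as a block the adjusted calls were again 0 of 10 in each comparison, against 0.899%, 0.518% and 0.686% of all tested probes. In that fit 1 of 10, the brightest CD3G probe, had an unadjusted p under 0.05 between DP and the CD8 fraction, against 9.70% of all tested probes, and 0 of 10 in the other comparisons. A moderated F test over the 3 fractions called none of the 10, against 0.612% of all tested probes.

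CD3E encodes the epsilon chain, which pairs with both other CD3 chains. It read 6.08, 5.70 and 4.69 in DP (arrays 1 to 3), 5.75, 5.30 and 4.73 in CD4 cells and 5.79, 5.44 and 4.94 in CD8 cells. Its means, 5.49 ± 0.72 for DP, 5.26 ± 0.51 for CD4 and 5.39 ± 0.43 for CD8 (SD, n = 3), spanned 0.23. The DP arrays alone spanned 1.39. The fractions overlapped fully, and neighbours in the order of the means did not differ beyond their spread. The difference was 0.23 (SE 0.43, 95% interval -0.70 to 1.16) for DP minus CD4, 0.10 (-0.83 to 1.04) between DP and the CD8 fraction and -0.13 (-1.06 to 0.80) between the CD4 and CD8 fractions.

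CD3D encodes the delta chain. Its brightest probe read 4.46, 3.15 and 3.18 in DP (arrays 1 to 3), 3.99, 3.58 and 3.32 in CD4 cells and 3.69, 1.68 and 3.28 in CD8 cells. CD8 array 2 was the lowest of all 9, and the other 8 arrays lay between 3.15 and 4.46. The means were 3.60 ± 0.75 for DP, 3.63 ± 0.34 for CD4 and 2.88 ± 1.06 for CD8 (SD, n = 3). DP and the CD4 fraction differed by -0.03 (SE 0.54, 95% interval -1.19 to 1.13). DP and the CD8 fraction differed by 0.71 (-0.45 to 1.87, limma adjusted p = 0.988), and without CD8 array 2 by 0.11 (-0.92 to 1.14). The CD4 and CD8 fractions differed by 0.75 (-0.41 to 1.91), and without that array by 0.15 (-0.88 to 1.17).

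CD3G encodes the gamma chain. Its brightest probe read 5.67, 5.60 and 5.43 in DP (arrays 1 to 3), 5.62, 6.18 and 5.43 in CD4 cells and 6.29, 6.79 and 5.71 in CD8 cells. Every CD8 array was above every DP array, while the CD4 arrays overlapped with both. This was the only member probe of 10 whose arrays did not overlap between DP and the CD8 fraction, against 9.79% of all tested probes, so a share of 1 in 10 is that of the background. Between DP and the CD4 fraction 0 of 10 had no overlap, against 10.1%, and between the CD4 and CD8 fractions 0 of 10, against 8.01%. The means were 5.57 ± 0.12 for DP, 5.74 ± 0.39 for CD4 and 6.26 ± 0.54 for CD8 (SD, n = 3). DP minus CD8 came to -0.70 (SE 0.36, 95% interval -1.48 to 0.09) and did not pass (limma adjusted p = 0.847). With the array number as a block its interval was -1.36 to -0.04, and it did not pass either (limma adjusted p = 0.483). Without CD8 array 2, the brightest for this probe, it was -0.43 (-1.23 to 0.37). DP and the CD4 fraction differed by -0.18 (-0.96 to 0.61), and the CD4 and CD8 fractions by -0.52 (-1.30 to 0.26).

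CD247 encodes the zeta chain, a homodimer that carries most of the tyrosine motifs of the complex. Its brightest probe read 5.13, 4.69 and 4.69 in DP (arrays 1 to 3), 5.21, 5.51 and 5.001 in CD4 cells and 5.43, 4.92 and 4.92 in CD8 cells. The whole range over the 9 arrays was 0.83, the narrowest among the brightest probes of the 6 genes. Its SD over the arrays was 0.29, and 3.90% of all tested probes had a smaller one. The means were 4.84 ± 0.25 for DP, 5.24 ± 0.26 for CD4 and 5.09 ± 0.29 for CD8 (SD, n = 3). DP differed by -0.40 (SE 0.33, 95% interval -1.12 to 0.31) from the CD4 fraction and by -0.25 (-0.97 to 0.46) from the CD8 fraction. The CD4 and CD8 fractions differed by 0.15 (-0.57 to 0.87).

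CD2 read 6.07 and 4.43 on DP arrays 1 and 3, 6.54, 5.39 and 4.75 in CD4 cells and 5.64, 5.69 and 5.21 in CD8 cells. Its spot on DP array 2 was marked as an outlier by the scanner software and left out, so the DP mean of 5.25 ± 1.16 rests on 2 arrays. The means were 5.56 ± 0.91 for CD4 and 5.51 ± 0.26 for CD8 (SD, n = 3). The CD4 arrays spanned 1.79, more than any distance between fraction means. DP differed by -0.31 (SE 0.58, 95% interval -1.57 to 0.96) from the CD4 fraction and by -0.27 (-1.53 to 1.00) from the CD8 fraction. The marked spot read 5.98, and with it the differences were -0.06 and -0.02. The CD4 and CD8 fractions differed by 0.04 (-1.09 to 1.18). The single DP arrays set the direction, since the difference from the CD4 fraction was -1.13 without DP array 1 and 0.51 without DP array 3, and that from the CD8 fraction -1.09 and 0.56.

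LCK is the first kinase of the pathway. Its brightest probe read 3.43, 2.71 and 3.35 in DP (arrays 1 to 3), 3.04, 3.53 and 3.47 in CD4 cells and 3.84, 1.91 and 3.49 in CD8 cells. The CD8 fraction held both the highest and the lowest of the 9 values, and the lowest was again that of CD8 array 2. The means were 3.16 ± 0.39 for DP, 3.35 ± 0.27 for CD4 and 3.08 ± 1.03 for CD8 (SD, n = 3). DP differed by -0.18 (SE 0.49, 95% interval -1.23 to 0.87) from the CD4 fraction and by 0.08 (-0.97 to 1.13) from the CD8 fraction. The CD4 and CD8 fractions differed by 0.26 (-0.79 to 1.31). Without CD8 array 2 the last pair of differences turned, to -0.50 (-1.36 to 0.35) and -0.32 (-1.17 to 0.53).

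**Figure D1:**
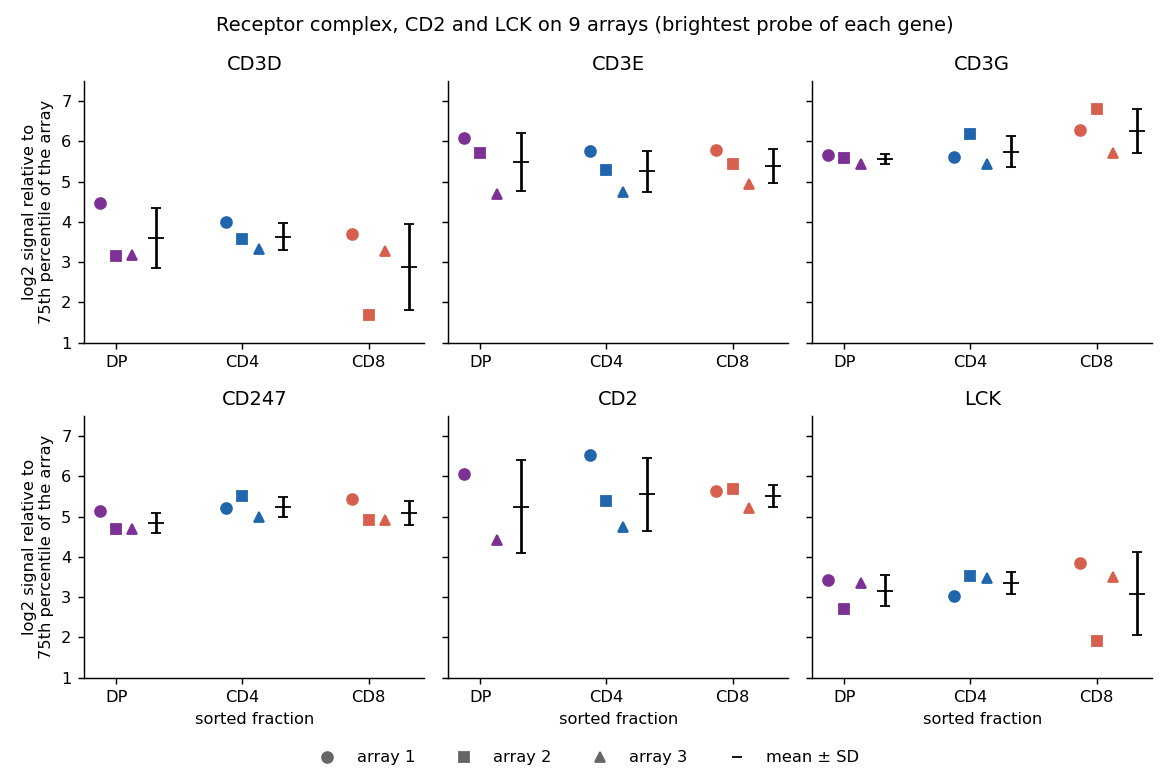
Log2 signal relative to the 75th percentile of the array (vertical axis) for the brightest probe of each gene, by sorted fraction (DP, CD4, CD8). Symbols are the single arrays and black bars the mean ± SD; the CD2 value of DP array 2 is missing. CD8 array 2 (square) is the lowest point for CD3D, at 1.68, and for LCK, at 1.91, and the highest for CD3G, at 6.79.

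The first comparison of the series sets DP against each other fraction, and for the receptor complex its result is the width of the intervals. Against the CD4 fraction the 6 genes had a median difference of -0.18, beside -0.02 over all tested probes, with 5 genes negative and 1 positive. Their 95% intervals reached at most a 1.95-fold change for CD3G and a 2.98-fold change for CD2, in either direction. Against the CD8 fraction the median was -0.09, beside -0.03, with 3 genes in each direction and intervals that reached from a 1.96-fold change for CD247 to a 3.67-fold change for CD3D. Between the CD4 and CD8 fractions, a reference pair, the median was 0.10, beside -0.01, and intervals reached from 1.82-fold for CD247 to 3.75-fold for CD3D. With the array number as a block these reaches ran from 1.79-fold to 2.37-fold, from 1.66-fold to 3.04-fold and from 1.68-fold to 3.11-fold. The ends of an interval bound the changes that the data allow and are not a limit of detection. The smallest absolute difference called among all probes was 2.02 in the first, 2.49 in the second and 2.04 in the third of these comparisons.

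**Figure D2:**
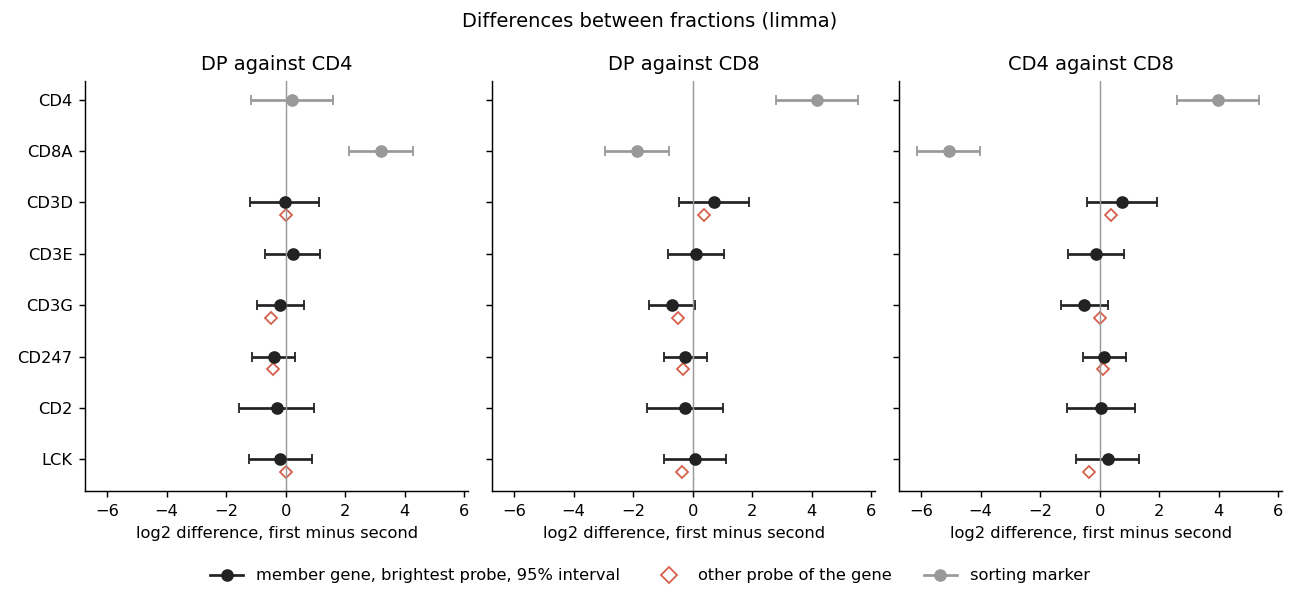
Log2 difference between fractions (horizontal axis, first minus second) from limma for each member gene, with its 95% interval (black), the other probe of the gene (open diamonds) and the sorting markers CD4 and CD8A (grey). All member intervals of this fit, which has no block, include 0, and the largest member difference is 0.75 for CD3D between the CD4 and CD8 fractions.

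The members did not have unusually small differences. Between DP and the CD4 fraction, absolute differences of the 6 brightest probes ran from 0.03 for CD3D, with 6.83% of tested probes below it, to 0.40 for CD247, with 64.2% below it. Between DP and the CD8 fraction they ran from 0.08 for LCK (13.5% of probes below it) to 0.71 for CD3D (78.8%). Between the CD4 and CD8 fractions they ran from 0.04 for CD2 (7.45%) to 0.75 for CD3D (83.0%). Median absolute differences of the 6 genes were 0.21, 0.26 and 0.21 in these comparisons, beside 0.28, 0.34 and 0.32 over all tested probes.

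**Figure D3:**
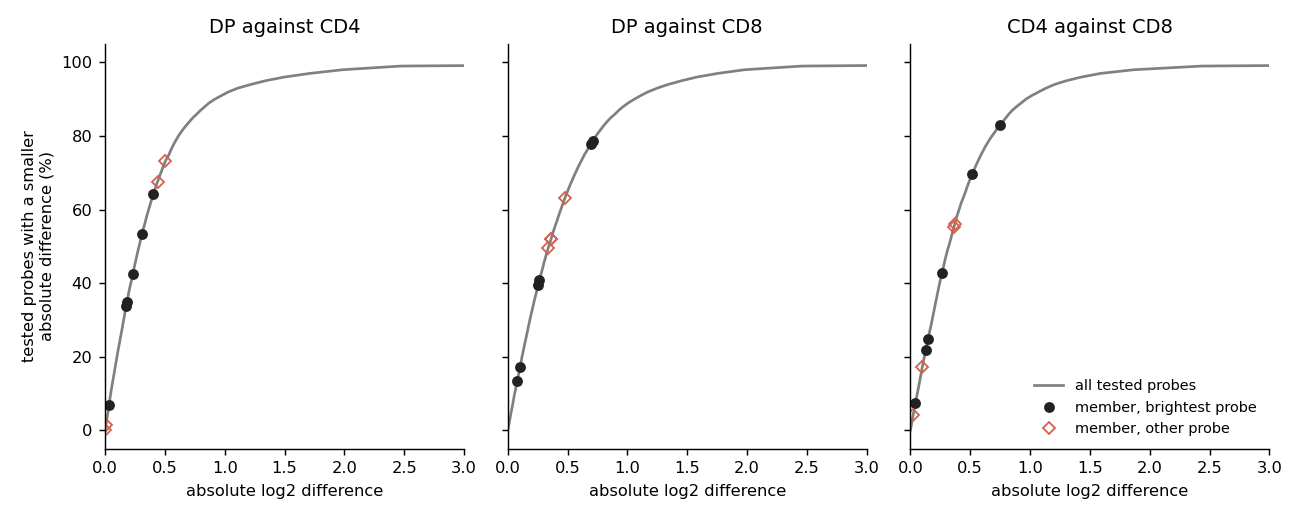
Share of the 16024 tested probes with a smaller absolute log2 difference (vertical axis, percent) against the absolute log2 difference (horizontal axis), for all tested probes (grey line, drawn up to 3) and for the member probes (black, brightest probe of a gene; open, other probe). The members spread along the curve up to 83.0% and none lies in its upper tail.

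Slides were compared next, since DP array 1 had a slide to itself. With slide as a block, which takes that array out of the comparison, none of the 6 DP minus CD4 differences passed. All were negative, from -0.15 for CD3E to -1.10 for CD2. The CD2 value had DP array 3 alone behind it, since its spot on DP array 2, on slide 2, was left out as an outlier. That spot read 5.98, above the 5.39 of CD4 array 2. Within slide 2 the differences between DP and the CD4 fraction were -0.44 for CD3D, 0.40 for CD3E, -0.58 for CD3G, -0.82 for CD247 and -0.82 for LCK. Within slide 3 they were -0.47 for CD3D, -0.55 for CD3E, -0.10 for CD3G, -0.41 for CD247, -1.21 for CD2 and 0.10 for LCK. CD3D, CD3G and CD247 were thus lower in DP on both slides, and CD3E and LCK changed sign between them. Each of these values sets a single DP array against CD4 array 2 or the mean of CD4 arrays 1 and 3. No spread between DP arrays stands behind it.

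Between DP and the CD8 fraction, the slide block gave 0.24 for CD3D, -0.10 for CD3E, -0.65 for CD3G, -0.36 for CD247, -1.02 for CD2 and -0.10 for LCK, and none passed. The DP minus CD8 difference of CD3G was -0.95 within slide 2 and -0.28 within slide 3, and that of CD247 -0.48 and -0.23. CD3D changed sign, at 0.46 and -0.10, and so did CD3E, at 0.09 and -0.24, while LCK was at -0.16 and -0.14 and CD2, on slide 3 alone, at -0.78. Between the CD4 and CD8 fractions the block gave values from -0.32 for CD3G to 0.66 for CD3D. CD3D was at 0.90 within slide 2 and 0.37 within slide 3, CD3G at -0.37 and -0.18 and CD247 at 0.34 and 0.18. CD3E, CD2 and LCK differed in sign between the slides, at -0.32 and 0.31, at -0.28 and 0.43 and at 0.65 and -0.24.

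Arrays of one fraction differed more than fractions did for several members, and on CD8 array 2 the chains did not move together. Over the 9 arrays, the Pearson r between pairs of receptor chains ran from -0.55 (CD3D with CD3G) to 0.44 (CD3D with CD247). Without CD8 array 2 it ran from 0.22 (CD3D with CD3G) to 0.82 (CD3G with CD247). Genes of an array share its scaling, which raises such an r. CD8 array 2 carried the largest departures. There CD3D lay 1.69 and LCK 1.28 below the mean of the gene over the arrays, CD3G lay 0.94 above it, and CD3E and CD247 lay at 0.06 and -0.13. The gap between the CD3G and CD3D probes, which does not depend on how the array was scaled, was 5.11 on CD8 array 2 and 1.21 to 2.60 on the other 8 arrays. A gap between probes is no ratio of transcripts, and its change between arrays is what can be read. The gap between CD3E and CD3D likewise was 3.76 on that array and 1.42 to 2.55 elsewhere, while LCK minus CD3D, at 0.23, was close to the range of -1.04 to 0.21 on the others.

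The same array stood apart in genes outside the complex. GZMB, which encodes granzyme B, read 7.91 there and 3.33 and 2.14 on the other CD8 arrays. The summed level of the 5 tested natural killer cell markers (7 of 12 listed were named), which include GZMB, was 8.24 on the log2 scale, against 6.50 and 5.19 on the other CD8 arrays, 5.57 to 7.02 in DP and 2.85 to 4.73 in the CD4 fraction. Without GZMB the sum of the other 4 was 5.96, between the 6.33 and 5.002 of the other CD8 arrays, so GZMB alone set the array apart in this list. NCR1, a defining natural killer cell receptor, was not well above background on any of the 9 arrays, and KLRB1 was so on 1. GATA3, a transcription factor of helper and gamma delta T cells, read -0.92 on CD8 array 2 and 2.16 and 0.63 on the other CD8 arrays. The part of these in the CD3D and LCK values was not tested.

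**Figure D4:**
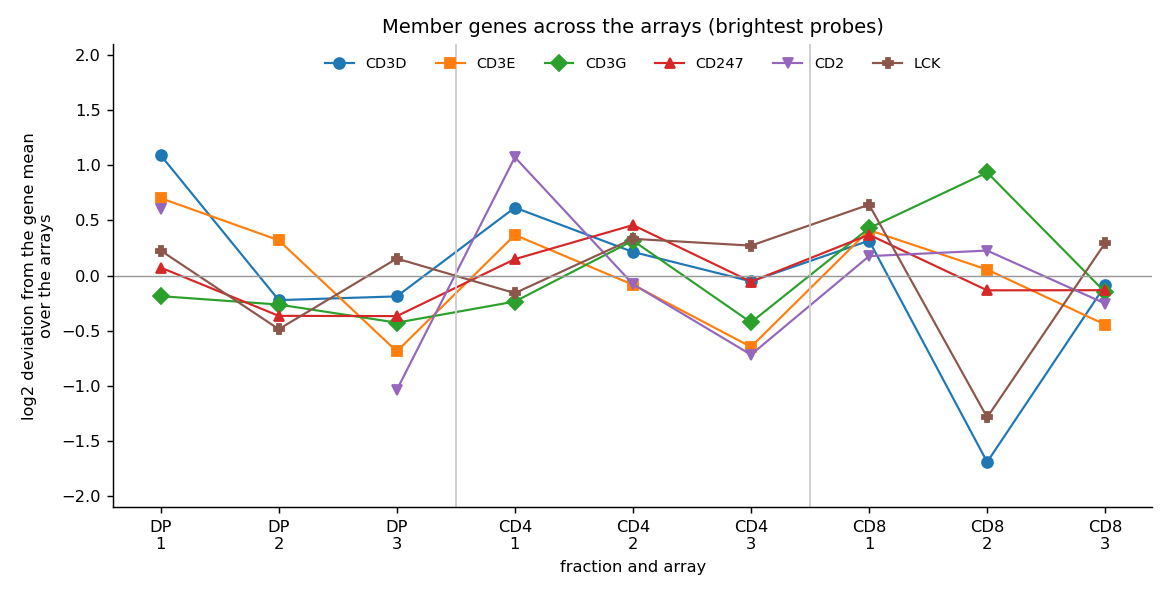
Log2 deviation of each member gene (brightest probe) from its own mean over the arrays (vertical axis), for the 9 arrays by fraction and number (horizontal axis; lines only join the points of a gene). On CD8 array 2 CD3D lies at -1.69 and LCK at -1.28 while CD3G lies at 0.94.

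Array number went with part of the remaining spread for some members. For CD3E, CD3G and CD2, the array numbered 3 was the lowest of its fraction in all 3 fractions. For CD247 this held in 2 of 3, for CD3D in 1 and for LCK in 0. How often it holds among all tested probes is not given here. The mean of CD3E was 5.87 over the arrays numbered 1, 5.48 over those numbered 2 and 4.79 over those numbered 3, a span of 1.09 beside 0.23 between fractions. CD2 spanned 1.29 by number and 0.31 by fraction, CD3D 1.24 and 0.75 and LCK 0.72 and 0.26. CD3G and CD247 spanned slightly less by number than by fraction, at 0.66 beside 0.70 and at 0.38 beside 0.40. These numbers are those of the scanner files. With the CD8 arrays numbered as the processed table has them, array 3 was the lowest of its fraction in 2 of 3 fractions for CD3E, CD3G and CD2, in 3 for CD247, in 2 for CD3D and in 1 for LCK, and the spans by number were 0.64 for CD3E and 0.98 for CD2. The arrays numbered 3 in the scanner files all lay on slide 3, which also held CD4 array 1, the highest array of its fraction for CD3E at 5.75 and for CD2 at 6.54.

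A gene measured by both of its probes gives a further view of these values. The CD3D probes had a Pearson r of 0.93 over the 9 arrays (Spearman rho 0.88), and both were lowest on CD8 array 2, at 1.68 and 1.72. The r of the CD247 probes was 0.71 (rho 0.68). Their differences were also alike, at -0.44 for the other probe between DP and the CD4 fraction and -0.34 between DP and the CD8 fraction. The probes of a gene share the array and its scaling, which raises such an r.

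The CD3G and LCK probes disagreed. The other CD3G probe was much dimmer, at -0.80 to 0.77, and its r with the brightest was 0.29 (rho 0.33). It gave -0.48 between DP and the CD8 fraction, in the direction of the brightest, and 0.02 between the CD4 and CD8 fractions, where the brightest gave -0.52. The LCK probes ran in opposite directions, with an r of -0.67 (rho -0.63). On CD8 array 2 the other LCK probe read 1.46, close to its highest of 1.51, where the brightest read 1.91, its lowest. The dimmer probe gave 0.00 (SE 0.71) for DP minus CD4 and -0.36 (SE 0.71) for DP minus CD8. The low LCK value of CD8 array 2 thus rests on 1 of 2 probes, and the low CD3D value on 2 of 2.

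**Figure D5:**
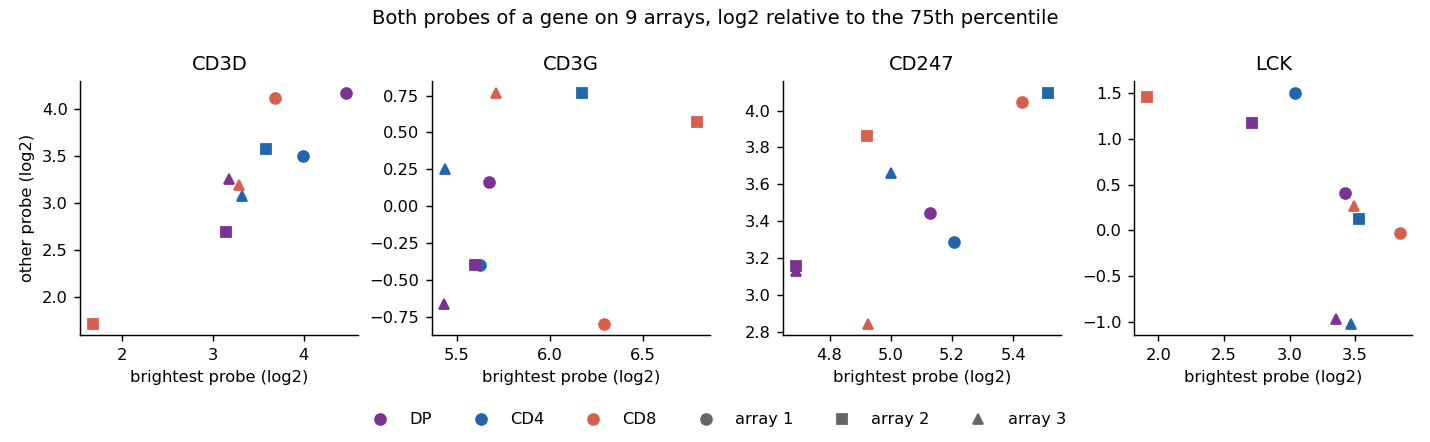
Signal of the other probe (vertical axis) against that of the brightest probe (horizontal axis), both as log2 relative to the 75th percentile, for the 4 genes with 2 probes; colours are fractions and symbols are array numbers. The CD3D probes rise together (r of 0.93) and the LCK probes run against each other (r of -0.67).

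The genes around the receptor were read from lists of signalling and adhesion genes. Of these, 23 genes other than the members were tested, and 0 were higher and 0 lower at an adjusted p under 0.05 in each of the 3 comparisons (limma, brightest tested probe). Their median differences were 0.31 between DP and the CD4 fraction, 0.27 between DP and the CD8 fraction and 0.01 between the CD4 and CD8 fractions, beside -0.02, -0.03 and -0.01 over all tested probes. ZAP70, LAT, PTPRC and CSK were not analysed here.

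Among 5 proximal signalling genes, FYN, the other Src family kinase of T cells, gave -0.05 (SE 0.40) for DP minus CD4 and 0.03 (SE 0.40) for DP minus CD8. NCK2, an adaptor that binds the tail of CD3 epsilon, had the largest difference of this list in both of these comparisons. It read 1.52, 1.33 and 1.04 in DP (arrays 1 to 3), 0.05, 0.62 and 0.21 in CD4 cells and -0.03, 0.15 and 0.42 in CD8 cells. All DP arrays lay above all others, at differences of 1.00 (SE 0.40, limma adjusted p = 0.785) and 1.11 (SE 0.40, adjusted p = 0.548), which did not pass. Arrays did not overlap for 10.1% and 9.79% of all tested probes in these comparisons. These are values of the brightest of 2 tested NCK2 probes. NCK1, its close relative, gave -0.74 (SE 0.43) and -0.39 (SE 0.43), and 0.35 between the CD4 and CD8 fractions, the largest of the list there.

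The 4 tested genes of the list of brakes on the receptor signal included DGKA, a kinase that removes diacylglycerol, and CD69, an early activation marker. DGKA had the largest difference between DP and the CD4 fraction, at -1.50 (SE 1.16), and between the CD4 and CD8 fractions, at 1.02 (SE 1.16), and CD69 that between DP and the CD8 fraction, at -1.65 (SE 1.02). Single arrays carried these values. Without DP array 3 the DGKA difference between DP and the CD4 fraction was -0.20, and without CD8 array 3 or 2 that between the CD4 and CD8 fractions was 2.54 or 0.13. CD69 was not well above background on DP array 3, and without that array its difference was -0.39. Of the CD2 list, 3 genes were tested. CD58, the ligand of CD2, differed by 0.03 (SE 0.46) and -0.03 (SE 0.46) between DP and the other fractions. CD48, the ligand of a CD2 relative, had the largest values between DP and the CD4 fraction, at 0.71 (SE 0.42), and between the CD4 and CD8 fractions, at -0.47 (SE 0.42). PSTPIP1, which binds the CD2 tail, gave 0.47 (SE 0.49) between DP and the CD8 fraction.

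In the distal arm, with 11 tested genes, PPP3CA and CD28 came closest to a call. PPP3CA, the catalytic chain of calcineurin, read 5.85, 4.75 and 5.03 in DP (arrays 1 to 3), 3.62, 4.10 and 3.86 in CD4 cells and 5.54, 5.67 and 4.70 in CD8 cells. All CD4 arrays lay below all others, by 1.35 against DP (SE 0.40, limma adjusted p = 0.306) and with a CD4 minus CD8 difference of -1.44 (SE 0.40, adjusted p = 0.292). These are values of the brightest of 3 tested PPP3CA probes, none of which was called. CD28, the costimulatory receptor, gave 1.47 between DP and the CD8 fraction (SE 0.45, adjusted p = 0.335), with all DP arrays above all CD8 arrays. Neither passed.

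The marker lists bear on what else the fractions held. Of 5 named B cell markers, BLNK stayed at background level on all 9 arrays, while MS4A1 passed the background test on 5 of 9. CD79A, which passes on the signal of the B cell receptor, read 3.50, 2.39 and 3.56 on the CD8 arrays and -1.50 to 0.86 on the other 6. The summed level of CD79A and CD74 was 3.23 to 4.66 in the CD8 fraction, 2.83 to 3.96 in DP and 1.54 to 1.83 in CD4 cells. CD74 alone read 2.06 to 3.81, 2.76 to 3.83 and 0.97 to 1.03 in these fractions. The sum in DP was thus mostly CD74, while CD79A gave -0.22 (SE 0.60) for DP minus CD4. Of 10 named monocyte and granulocyte markers 4 were tested, and 4, among them S100A8 and S100A9, were on no array well above background. CD14, not tested, was well above background on 5 of 9 arrays, and CD163, not tested, on 1. The summed level of the 4 tested was -0.12 to 3.20 (DP), 1.34 to 2.06 (CD4) and 2.17 to 3.59 (CD8). For platelets and red cells 3 of 4 named genes were tested, with sums of 1.23 to 1.96, 1.16 to 1.84 and 0.12 to 2.02 in DP, CD4 and CD8. Among the 5 tested natural killer cell genes, KLRK1 read 0.69 to 3.002 in DP and 2.63 to 4.31 in CD8 cells. In CD4 cells 1 of 3 arrays passed the background test for KLRK1, at -2.70. FCGR3A passed it on 3 of 3 CD4 arrays, at 2.09 to 3.59. DP minus CD8 came to -1.17 for KLRK1, -1.09 for GZMB, -0.45 for NKG7, -0.38 for TYROBP and 0.73 for FCGR3A. DP minus CD4 came to 5.21 for KLRK1, 2.81 for FCGR3A, 1.70 for GZMB, 1.60 for NKG7 and 0.07 for TYROBP. By the brightest probe only KLRK1 was called there (limma adjusted p = 0.00589), against 0.293% of all tested probes. FCGR3A did not pass (limma adjusted p = 0.0509), though 1 of its 3 tested probes was called. The SE of GZMB was 1.30. Between DP and the CD8 fraction 0 of the 5 were called, against 0.312%. The gamma delta list had GATA3 alone tested, with CD163L1 and IL23R on no array well above background. The summed level of the 9 tested T cell genes, the members, CD4, CD8A and CD28, was 7.28 to 8.20 (DP), 7.33 to 8.11 (CD4) and 7.65 to 8.31 (CD8).

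The named genes whose pattern was most like that of each member were ranked by Pearson r over the arrays, among 1498 genes. For CD3E they were ATP5J2 (r of 0.97), ARPC4 (0.97) and CFL1 (0.97), for CD3D CREB3 (0.97), PPP1R18 (0.95) and OTUB1 (0.95), and for CD3G RPL10A (0.95), ETFB (0.95) and HNRNPA1 (0.94). For LCK they were CKM (0.96), SEMA6C (0.94) and RABAC1 (0.93), and for CD2, over 8 arrays, MTPN (0.97), MGAT2 (0.97) and LOC100524282 (0.96). CD247 had BBS4 (0.91), CTCF (0.85) and ATP5L (0.84). The members themselves were left out of this ranking, so none of them could appear in a list. No list of the nearest 3 was shared between members. None held CD4, CD8A, CD28 or another T cell gene named here outside the members. With 9 arrays that share one scaling, the highest r among so many genes is high by selection, and it is given only to describe these arrays.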

How the data were processed

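Pig T cell fractions were measured on 9 single-colour Agilent arrays. Per the file headers, the deposited intensity was made with Agilent Feature Extraction 11.0.1.1, is background-corrected on a linear scale and is not normalized between arrays. The deposited table of processed values is on a log2 scale with equal distributions in all columns, and the sources used here do not say how it was made. Its columns for CD8 arrays 1, 2 and 3 correlated best with the scanner files of CD8 arrays 3, 1 and 2. The scanner files were used. No probe was saturated.

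Control spots and 1 to 12 outlier spots per array were left out, and spots of a probe were averaged as log2. Each array was then scaled to its 75th percentile over all probes that were not controls. Tests covered probes that all 3 arrays of some fraction measured well above background, with values on at least 2 arrays per fraction. The 9 arrays were fitted together without a block in limma 3.58.1 (R 4.3.3; lmFit, eBayes with a variance trend, two-sided), with Benjamini-Hochberg adjustment over all 16024 probes at 0.05. The script was tested on simulated data. Arrays have no counted depth, and their number limits the precision. Same-numbered arrays of DP and the CD8 fraction deviated together (correlations of 0.27, 0.33 and 0.33). Results with the number as a block therefore stand beside those without it. The arrays numbered 2 shared a slide, as did those numbered 3, so pairing by sow and by slide cannot be told apart. If the arrays of a fraction were not from separate sows, p-values measure only the spread between these samples.

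Accessions named 6730 of 43603 probes (15.4%), matched to Sscrofa11.1. Coordinates are not printed, because no build is named in the files, and sequences were not used here. The brightest tested probe stood for a gene. Named were all member probes, CD4 and CD8A, fixed kinases and ligands, called list genes and the gene of each list with the largest difference per comparison, and the 3 genes most correlated with each member. Markers well above background on all arrays of a fraction could be named. All other markers named were chosen after their values were seen. Members and lists were chosen with earlier results of these data known.

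Alternatives were a replicate block, a slide block, other scalings, normexp on the median signals (the files hold no mean signal column), the processed table, other filters and leaving out arrays. Added after seeing the data were a block with the processed table's numbering and the outlier CD2 spot kept. Figures were drawn with Python 3.11.15 and matplotlib 3.10.9.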

Additional observations from a re-analysis of the deposited data

How the results depend on the processing

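Under every alternative run, including each array left out, 0 of the 10 member probes were called in each comparison. Of 439 values of single member genes under the alternatives, 391 kept their direction without a call, 45 had the other direction and 0 were called. Of the within-slide values, 5 moved by more than 1 residual SD. Turns with an array left out are among the 45, and not every turn is listed below. The direction turned, each time without a call, with median scaling between DP and the CD4 fraction for CD3D (0.15), CD3G (0.0065) and LCK (0.00095), where that scaling moved the median of all probes to 0.16. It turned with normexp for CD247 between DP and the CD8 fraction (0.0011) and for CD3E between the CD4 and CD8 fractions (0.15), and with the processed table for CD2 between DP and the CD8 fraction (0.092). It turned with the slide block for CD3E, at -0.15, -0.10 and 0.053 in the 3 comparisons, and for LCK between DP and the CD8 fraction (-0.10). The other LCK probe gave 0.00099, -0.36 and -0.36, the mean of both LCK probes gave -0.14 between DP and the CD8 fraction and -0.050 between the CD4 and CD8 fractions, and the other CD3G probe gave 0.025 there.

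The values with each array left out in turn follow. For CD3D they ran from -0.46 to 0.19 in DP against CD4, from 0.11 to 1.12 in DP against CD8 and from 0.15 to 1.15 in CD4 against CD8. For CD3E they ran from -0.063 to 0.63 in DP against CD4, from -0.19 to 0.50 in DP against CD8 and from -0.37 to 0.14 in CD4 against CD8. For CD3G they ran from -0.33 to 0.038 in DP against CD4, from -0.97 to -0.43 in DP against CD8 and from -0.80 to -0.25 in CD4 against CD8. For CD247 they ran from -0.55 to -0.27 in DP against CD4, from -0.40 to -0.09 in DP against CD8 and from 0.01 to 0.32 in CD4 against CD8. For CD2 they ran from -1.13 to 0.51 in DP against CD4, from -1.09 to 0.56 in DP against CD8 and from -0.45 to 0.45 in CD4 against CD8. For LCK they ran from -0.34 to 0.042 in DP against CD4, from -0.50 to 0.46 in DP against CD8 and from -0.32 to 0.64 in CD4 against CD8. The counts of called probes ran from 2 to 55 in DP against CD4, 1 to 51 in DP against CD8, 31 to 81 in CD4 against CD8. The lowest were without DP array 1 for both DP comparisons and without CD8 array 2 for the third.

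The number of probes called over the whole array moved more. It was 47, 50 and 70 in DP against CD4, DP against CD8 and CD4 against CD8. With normexp it was 1, 7 and 6, with the slide block 2, 2 and 38, and with only probes well above background on all arrays 12, 5 and 12. With no filter on dim probes it was 109 and 87 in the first and second comparison, with only the compared fractions in the fit 29 and 22. In DP against CD8 it was 22 with the percentile over probes detected on all arrays and 24 with the processed table.

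With a replicate block the counts were 144, 83 and 110, and 30 and 21 in the first and second comparison with the CD8 numbering of the processed table. No member probe was called in either. Arrays of one number deviated from their fraction means with correlations of -0.07 to 0.65 between DP and the CD4 fraction, 0.27 to 0.33 between DP and the CD8 fraction and -0.03 to 0.39 between the CD4 and CD8 fractions. Only between DP and the CD8 fraction were all of them positive. In the scanner files' numbering all arrays numbered 2 lay on slide 2 and all numbered 3 on slide 3. A shared sow and a shared slide therefore cannot be told apart by these correlations. The correlation was highest for the array of the same number in 7 of 9 cases. The deposited scanner files of one number also share an identifier across the fractions, and the labels do not say what it marks. The block changed no call of a member probe.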
